A study of Mus musculus with 8 samples.

Results

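The open chromatin regions described here are autosomal ATAC-seq peaks that were tall in Chd7 mutant granule neuron progenitors and had no counterpart in the peak list of wild-type (WT) or heterozygous (het) cells. They were chosen by 3 values: a pileup height of 18 or more in the mutant peak list, no WT peak within 300 bp and no het peak within 300 bp. The rule was met by 2002 of 170362 autosomal mutant peaks (1.18%), and by 2002 of the 78135 that were tall (2.56%, 95% Wilson interval 2.45 to 2.68). They are called mutant-only peaks, in the sense that no other list held them. Tall mutant peaks with a WT peak within 300 bp, 75378 in all, are called shared peaks. The same rule turned around found 951 WT-only peaks among 68810 tall autosomal WT peaks (1.38%, 1.30 to 1.47).

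ATAC-seq was performed on granule neuron progenitors (GNPs) freshly isolated from the untreated cerebellum of mice at postnatal day 7, labelled as strain C56Bl6/J. The groups were Chd7 wild type (3 libraries), Chd7 mutant (3 libraries) and Chd7 het (2 libraries). By the study's methods the mutants were homozygous for a floxed Chd7 allele (Chd7 f/f) and carried the Atoh1-Cre transgene. The hets were Chd7 f/+ with the same transgene, and the WT animals were Chd7 f/f without it. The Atoh1 promoter is active in the rhombic lip, which gives rise to excitatory cerebellar neurons including granule cells, and the study describes some Chd7 remaining in the posterior lobe. The study calls the WT and mutant replicates technical, and the authors pooled the libraries of each genotype before they called peaks, so no value here has an error between animals or libraries.

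Chd7 is an ATP-dependent nucleosome remodeller, an enzyme that slides nucleosomes on DNA and can thereby open or close regulatory elements. GNPs divide in the outer layer of the young cerebellum under Sonic hedgehog from Purkinje cells, then leave the cell cycle, extend axons and migrate inwards. In ATAC-seq the Tn5 transposase cuts accessible DNA, and a peak is a place where cuts pile up above the local background.

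The sequences of 9 mutant-only peaks are given on the plus strand of GRCm38/mm10, from the RefSeq genome. Capitals mark matches on either strand to any of 14 short motifs, spelled out with their counts further on, so that CATCTG is the E-box CAGATG read on the other strand. The first 4 were among the 10 with the highest −log10 q, a measure of how far a peak stood above its local background, and show the strongest calls. None of them lay within 1 kb of a start site. A peak wider than 300 bp is shown by 300 bases that include its summit.

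chr8:33177639-33177938: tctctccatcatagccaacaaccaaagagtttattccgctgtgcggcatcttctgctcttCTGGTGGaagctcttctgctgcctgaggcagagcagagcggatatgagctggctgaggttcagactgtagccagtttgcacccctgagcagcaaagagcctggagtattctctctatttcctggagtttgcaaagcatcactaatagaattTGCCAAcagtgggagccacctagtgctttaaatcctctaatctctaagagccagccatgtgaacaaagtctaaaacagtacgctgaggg

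chr1:116370899-116371090: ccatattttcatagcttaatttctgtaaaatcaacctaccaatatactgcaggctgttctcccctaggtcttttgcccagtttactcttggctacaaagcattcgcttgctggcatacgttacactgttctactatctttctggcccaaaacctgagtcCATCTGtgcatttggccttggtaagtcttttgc

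chr2:12756124-12756319: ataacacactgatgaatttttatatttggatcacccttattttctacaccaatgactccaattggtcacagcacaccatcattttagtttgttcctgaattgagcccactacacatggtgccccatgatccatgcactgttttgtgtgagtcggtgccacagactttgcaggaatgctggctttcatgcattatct

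chr15:49555943-49556083: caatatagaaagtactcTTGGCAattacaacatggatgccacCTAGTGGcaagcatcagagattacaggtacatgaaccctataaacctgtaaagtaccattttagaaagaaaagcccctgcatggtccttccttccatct

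The next 2 were among the mutant-only peaks of highest −log10 q within 1 kb of a protein-coding start site, and lay at Gm5414 and at Ankrd34c.

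chr15:101627967-101628127: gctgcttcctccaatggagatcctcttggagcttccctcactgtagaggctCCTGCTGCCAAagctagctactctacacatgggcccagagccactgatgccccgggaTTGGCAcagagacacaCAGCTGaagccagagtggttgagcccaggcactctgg

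chr9:89737396-89737610: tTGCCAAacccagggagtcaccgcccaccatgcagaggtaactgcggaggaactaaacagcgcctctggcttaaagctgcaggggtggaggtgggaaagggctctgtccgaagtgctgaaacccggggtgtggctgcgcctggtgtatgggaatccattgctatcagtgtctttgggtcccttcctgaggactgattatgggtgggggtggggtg

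The last 3 are shown because they lay in introns of genes listed by the study as dependent on Chd7 for expression. These were Sh3rf3, Sox5, which encodes a SoxD transcription factor, and Ppp3ca, which encodes the catalytic subunit of calcineurin. All come from the study's list of genes that need Chd7 and the topoisomerase Top2b in cultured granule neurons, and none from its GNP list.

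chr10:58871342-58871641: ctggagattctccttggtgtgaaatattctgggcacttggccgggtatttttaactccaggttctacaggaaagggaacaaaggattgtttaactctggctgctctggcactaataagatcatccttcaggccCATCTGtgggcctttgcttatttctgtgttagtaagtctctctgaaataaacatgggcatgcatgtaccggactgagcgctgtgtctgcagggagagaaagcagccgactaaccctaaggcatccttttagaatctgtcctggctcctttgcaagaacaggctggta

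chr6:144691435-144691651: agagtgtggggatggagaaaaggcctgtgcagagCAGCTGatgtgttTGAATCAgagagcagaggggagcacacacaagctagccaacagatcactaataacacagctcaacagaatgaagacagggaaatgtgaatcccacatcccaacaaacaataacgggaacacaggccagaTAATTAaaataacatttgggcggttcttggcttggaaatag

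chr3:136842481-136842635: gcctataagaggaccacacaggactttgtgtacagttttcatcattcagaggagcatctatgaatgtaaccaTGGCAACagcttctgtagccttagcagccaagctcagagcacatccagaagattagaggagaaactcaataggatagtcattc

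The mutant-only peaks were short peaks near the threshold. Pileup height, the number of extended tags over the summit, had a median of 20 and a range of 18 to 56. Of the 2002, 1648 (82.3%) stood between 18 and 24, 120 reached 30 and 13 reached 40. The share of mutant peaks without a WT or het counterpart was 11.5% at the height of 17 (644 of 5604), just outside the rule, and 8.90% at 18 (463 of 5205), just inside. It went down to 5.71% at a height of 20 and 1.10% at 30. In the WT list the shares were 4.92% at 18, 3.69% at 20 and 0.400% at 30. These heights were used by the rule and are a description. The pools were close in depth, with 51030229 tags after filtering for mutant and 50394313 for WT, while het had 30923002. The tag size, 76 bp for mutant and 107 bp for WT and het, moved with the genotype and cannot be told apart from it.

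**Figure D1:**
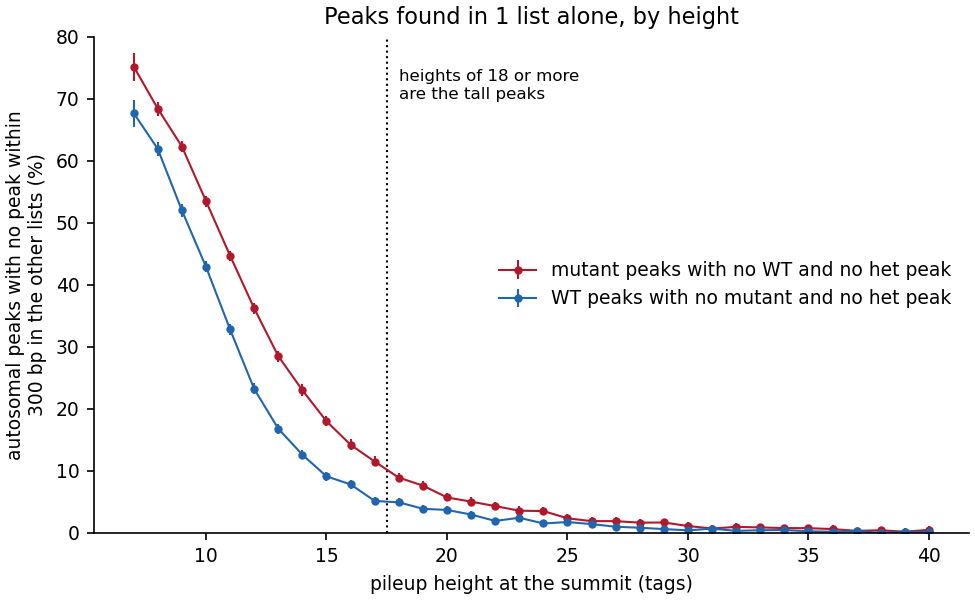
Percent of autosomal peaks of each height with no peak within 300 bp in the other lists (y axis) against pileup height in tags (x axis), for mutant peaks (red) and WT peaks (blue). Bars are 95% Wilson intervals over peaks, and the dotted line marks the height of 18. Both curves go down with height, from 8.90% and 4.92% at 18 to 1.10% and 0.400% at 30.

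At equal height the mutant-only peaks were narrower and weaker than shared peaks, and closer to WT-only peaks. For heights of 18 to 24, median width was 133 bp for mutant-only, 245 bp for shared and 125 bp for WT-only peaks. Median fold enrichment over local background was 4.22, 6.16 and 3.80 in the same order. A −log10 q of 10 or more was reached by 16.3% of mutant-only peaks of that height, 54.6% of shared and 10.8% of WT-only peaks. The intervals of mutant-only (14.6 to 18.2) and WT-only peaks (8.82 to 13.2) did not overlap.

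Most mutant-only peaks lay on raised ground. The local background implied by height and fold enrichment had a median of 4.40 tags, against a genome-wide value of 1.66. At heights of 18 to 24, 64.0% of mutant-only peaks, 26.7% of shared and 74.8% of WT-only peaks lay where it was 2 times the genome-wide value or more. The peak caller asks for a taller pileup where the background is high, so the rule favours such places, and a missing WT peak does not show that WT signal was missing. The lowest height called in the WT list at a peak's own background or above ranged from 7 to 45, with a median of 12. The mutant-only peaks reached a median of 1.69 times that height (lower quartile 1.45), and 611 of them (30.5%) reached 2 times it or more. The rule's height of 18 sets a floor to this ratio wherever the lowest WT height is small, so the ratios are a description. The background was that of the mutant list and not of WT at the same place.

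**Figure D2:**
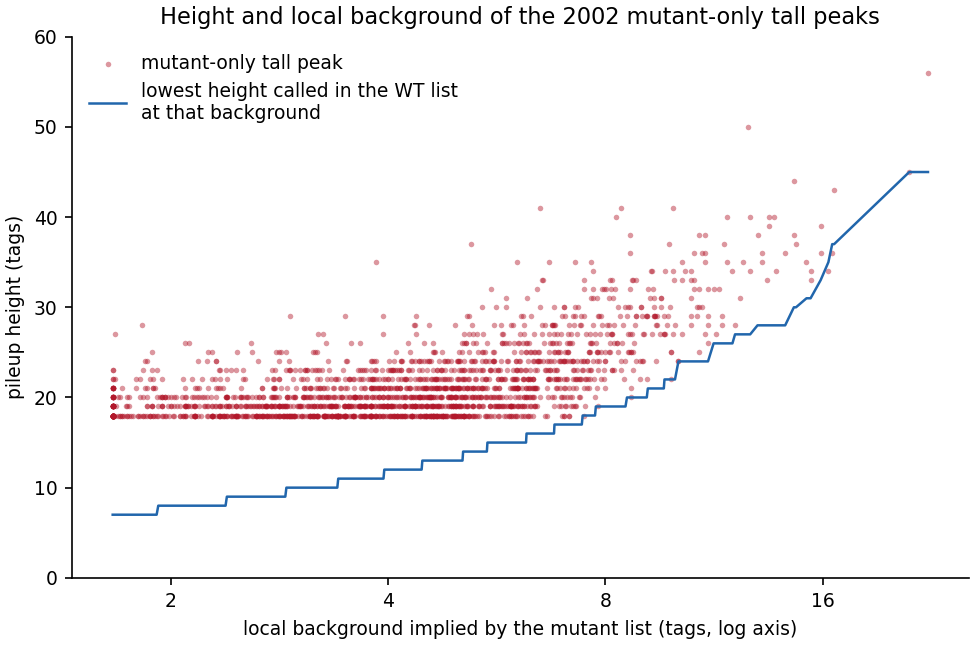
Pileup height in tags (y axis) of the 2002 mutant-only tall peaks (points) against the local background implied by the mutant list (x axis, log scale). The blue line is the lowest height called in the WT list at that background or above; most points lie above it, and the median height is 1.69 times that of the line.

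WT peaks were seldom far away. The nearest WT peak began or ended a median of 1802 bp from a mutant-only peak (quartiles 864.2 and 3214.2) and had a median height of 30. It was no more than 1000 bp away for 610 peaks (30.5%), 1 to 5 kb for 1192 (59.5%) and over 20 kb for 31 (1.55%). The nearest het peak lay a median of 2040.5 bp away. Within the mutant list, 57.5% of mutant-only peaks of height 18 to 24 had their nearest other peak at 1 to 5 kb, against 32.1% of shared and 53.2% of WT-only peaks of that height. One within 300 bp was present for 4.13%, 22.2% and 4.50%. The rule bears on these distances, since it removes mutant peaks with a close neighbour that the other lists hold, and they are a description. Shared peaks within 10 kb of a mutant-only peak had a median log2 ratio of mutant to WT height of 0.06, against 0.08 for those farther away.

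In the genome they lay mainly in introns and between genes, as did shared and WT-only peaks. Of the 2002, 964 summits (48.2%) were intronic, 637 (31.8%) intergenic, 284 (14.2%) within 1 kb of a start site and 117 (5.84%) exonic. Location was not a value of the rule, but the rule favours raised ground and removes peaks near other lists' peaks, so it can bear on location. At heights of 18 to 24 the intronic share was 48.5% (46.1 to 50.9) for mutant-only and 42.7% (42.1 to 43.3) for shared peaks. For WT-only peaks it was 47.4% (43.9 to 50.9). The intergenic share was 33.1% (30.9 to 35.4), 38.3% (37.8 to 38.9) and 29.7% (26.6 to 33.0) in the same order. The clearest contrast was just outside promoters. A start site lay 1 to 5 kb away for 29.5% (27.3 to 31.7) of mutant-only peaks, 14.9% (14.5 to 15.4) of shared and 28.8% (25.8 to 32.1) of WT-only peaks of that height. Mutant-only and WT-only peaks had like shares in that zone. Location moved with background: 5.21% of mutant-only peaks at under 2 times the genome-wide value and 18.2% of the others lay within 1 kb of a start site. The part of background, and of the distance that the rule asks for, in the contrast of 1 to 5 kb was not tested.

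**Figure D3:**
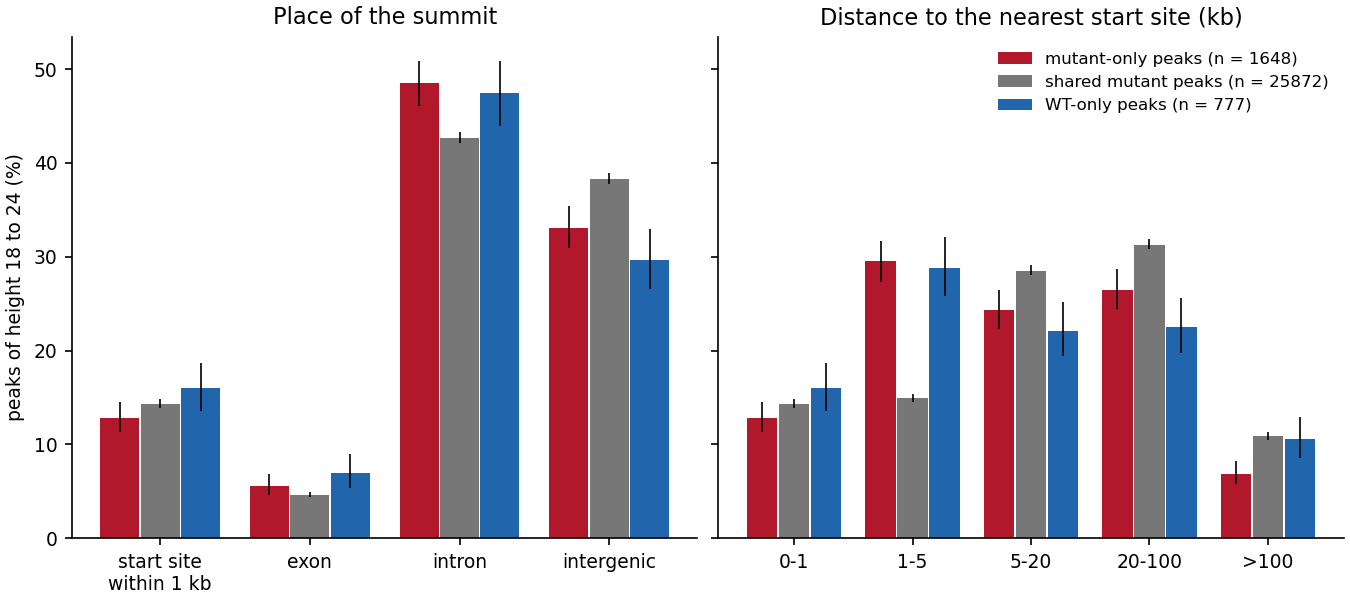
Percent of peaks of height 18 to 24 (y axis) by place of the summit (left) and by distance to the nearest start site (right), for mutant-only (red), shared (grey) and WT-only peaks (blue), with 95% Wilson intervals. Mutant-only and WT-only peaks stand at 29.5% and 28.8% in the class of 1 to 5 kb, and shared peaks at 14.9%.

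The 10 mutant-only peaks with the highest −log10 q comprised 5 intergenic, 4 intronic and 1 at a start site. The highest, chr6:31803314-31803486 in Gm13849, had a height of 28 and a −log10 q of 21.4, and its sequence is not unique, with a 76-base word found 192 times in the genome. The peak chr8:33177621-33177990 followed with 27 and 21.1, at the genome-wide background, 6728 bp from the nearest WT peak and 42495 bp from the nearest het peak. The peak chr1:116370899-116371090 in Cntnap5a, which encodes a contactin-associated adhesion protein, had a height of 35 and a −log10 q of 19.4. An intergenic peak at chr2:12756124-12756319 had a height of 26 and lay 20582 bp from any WT peak. The next were chr15:49555943-49556083 (height 25), chr15:39829570-39829813 in an intron of Dpys, a pyrimidine catabolism gene (26), and chr8:20593027-20593198, which holds repeated sequence (41). The last 3, all on chromosome 10, were chr10:116382896-116383062 in an intron of Ptprb, a receptor phosphatase gene (29), chr10:89391914-89392035 (37) and chr10:30743394-30743536 (24), 474 bp from the start of the long non-coding gene Gm48335. Of these 10 peaks, 7 lay at less than 2 times the genome-wide background, and the lowest WT heights called at their backgrounds were 7 to 16.

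The tallest mutant-only peaks, chosen after their values were seen, lay on high ground. A peak at chr4:95050030-95050191, 2136 bp from the start of Jun, an immediate early AP-1 factor, reached 56 on a background 13.4 times the genome-wide value, where 45 was the lowest height called in WT. A peak of 45 lay 1100 bp from the start of Pou3f2, over a lowest WT height of 45, and 1 of 43 lay 239 bp from the start of Nr2f1, over 37. Both genes encode neural transcription factors. The peaks in Unc5c, a netrin receptor of migrating granule cells, stood at 44 and 40 over 30 and 28. A peak of 41 in Pax6os1, a long non-coding gene beside Pax6, stood over 22.

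The mutant-only peaks farthest from any WT peak, also chosen after their values were seen, were near the threshold in height. The most distant, the intergenic chr16:82822342-82822583, had a height of 20 and lay 42071 bp from the nearest WT and 62510 bp from the nearest het peak. The next, chr5:82060793-82060923, had a height of 21 and lay 41514 bp away. An intronic peak in Alk, a receptor tyrosine kinase gene, at chr17:72425574-72425877, had a height of 22 and lay 30154 bp away. The widest mutant-only peak, chr2:146834354-146834937 in Gm14114, spanned 584 bp with a height of 20.

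Within 1 kb of a protein-coding start site lay 230 mutant-only peaks. Among those of highest −log10 q were Gm5414 (height 23, −log10 q 16.6, summit 144 bp from a start site), Ankrd34c (25, 13.5, 922 bp) and Khk, which encodes ketohexokinase (23, 13.4, 328 bp). Peaks at Tmprss7, Fam114a2, Exoc1, Fam180a and Emx1, a homeobox gene of the forebrain, had heights of 18 to 28 and −log10 q of 10.2 to 11.8. Another of these, at Gm11168, had a height of 50 and held 76-base words that occur up to 3 times in the genome.

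Genes held 1554 of the 2002 mutant-only peaks. A gene was assigned where a peak touched the gene itself, up to 5 kb before it or up to 1 kb after it. Of the 22240 genes with a tall mutant peak, 1726 held at least 1 mutant-only peak. Mutant-only peaks were 2.82% (2.68 to 2.96) of the 55172 tall mutant peaks in all genes. WT-only peaks were 730 of the 48684 tall WT peaks there. Of the genes, 216 held 2 or more, 39 held 3 or more and 11 held 4 or more. Protein-coding genes with a mutant-only peak had a median length of 57.4 kb.

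The readthrough locus Gm20388, annotated over 4434.9 kb of chromosome 8, held 18 of 297 tall peaks and encloses Gse1, which encodes a partner of histone demethylase complexes and held 10 of 76 (13.2%). Heights in Gse1 ran from 18 to 34 and −log10 q from 1.97 to 7.65. Klhl29 held 5 of 40, including the densest group, in which 4 peaks of height 18 to 29 lay within chr12:5208946-5221628. Boc and Nfix held 4 of 17 and 4 of 19, and Robo2, a Slit receptor in axon guidance, held 4 of 21. Cdh4, Tenm2, Myo10 and Zmiz1 also held 4 each, of 49, 58, 36 and 35. The annotation of Fgfr2 spans 2960.9 kb and covers other genes, and the 4 peaks assigned to it had their nearest start sites at Dmbt1, Htra1 and Fam53b. In all, 206 mutant-only peaks (10.3%) lay within 10 kb of another, in 98 groups, of which 89 were pairs. The 1 Mb of chromosome 8 from 120 Mb on, where Gse1 lies, held 11 of 110 tall peaks. The 7 of 31 in the 1 Mb from 20 Mb on all held repeated sequence. By chromosome the share of tall mutant peaks ranged from 1.77% on chromosome 13 to 3.24% on chromosome 8.

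Chd7 itself held 3 mutant-only peaks of 27 tall peaks, all intronic. Peak lists give no check of its deletion. Their heights were 23, 24 and 19, where 10, 17 and 13 were the lowest heights called in WT, and the nearest WT peaks lay 4610, 1383 and 1686 bp away. Within 1 Mb of Chd7 4 of 112 tall peaks were mutant-only (3.57%, 1.40 to 8.82), and within 10 Mb 11 of 432 (2.55%, 1.43 to 4.50). Both intervals include the 2.56% of all tall mutant peaks. Within 1 Mb of Atoh1, whose promoter drives Cre, it was 0 of 58, which allows a share of up to 6.21% by the interval.

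Genes of granule progenitor identity held a larger share of mutant-only peaks than genes at large. Of 325 tall peaks in the 34 genes of that list, 25 (7.69%, interval from 5.26) were mutant-only, in 15 genes, against 2.82% over all genes. WT-only peaks made up 8 of 282 (2.84%, 1.44 to 5.50) there, against 730 of 48684 over all genes. That share was also above its own value for all genes, which its interval includes. The WT-only and mutant-only intervals of the list overlapped. The background moved with the mutant-only share. Of the 325 tall peaks in these genes, 286 lay at 2 times the genome-wide background or more, against 55.1% of those in all genes. Among peaks of height 18 to 24 on such ground the share was 22.9% (16 of 70, 14.6 to 34.0), against 13.1% (12.3 to 13.9) over all genes, and on lower ground 1 of 23 was mutant-only. No test was made of these shares, and the intervals cover counting error over peaks only.

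Boc, a hedgehog co-receptor, held peaks of height 26, 24, 19 and 19, where heights of 17, 15, 15 and 12 were the lowest called in WT. Gli2, the main transcriptional activator of hedgehog signalling, held 3, of height 22, 20 and 24, over lowest WT heights of 11, 12 and 21. Nfix, a nuclear factor I gene of granule neuron maturation, held 4, of height 31, 19, 23 and 21, over 18, 13, 19 and 15. Zic4, a zinc finger gene of the cerebellum, held 3, of height 32, 36 and 31. The one of 36 stood where 37 was the lowest height called in WT, so that a WT pileup of equal height could have been missed there. Ccnd1, the cyclin of hedgehog-driven division, held 1 peak of height 20 at a lowest WT height of 20. Meis2, a homeobox gene, held 1 of height 20 at a lowest WT height of 8, in the peak with the highest −log10 q of the list. Meis2 also stands in the marker list for unipolar brush and deep nuclear neurons. The other peaks stood singly. Those in Insm1, Pax6 and En2, transcription factor genes of the lineage, had heights of 34, 34 and 28 over lowest WT heights of 27, 28 and 21. Those in Cbln3, a synaptic organiser of granule cells, Gli1, Mfap4, Ccnd2, Meis1 and Nfib had heights of 22, 22, 20, 19, 18 and 18, over 12, 17, 15, 14, 11 and 10. Peaks in these genes ran from 0.973 times the lowest WT height called, in Zic4, to 2.5 times it, in Meis2.

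**Figure D4:**
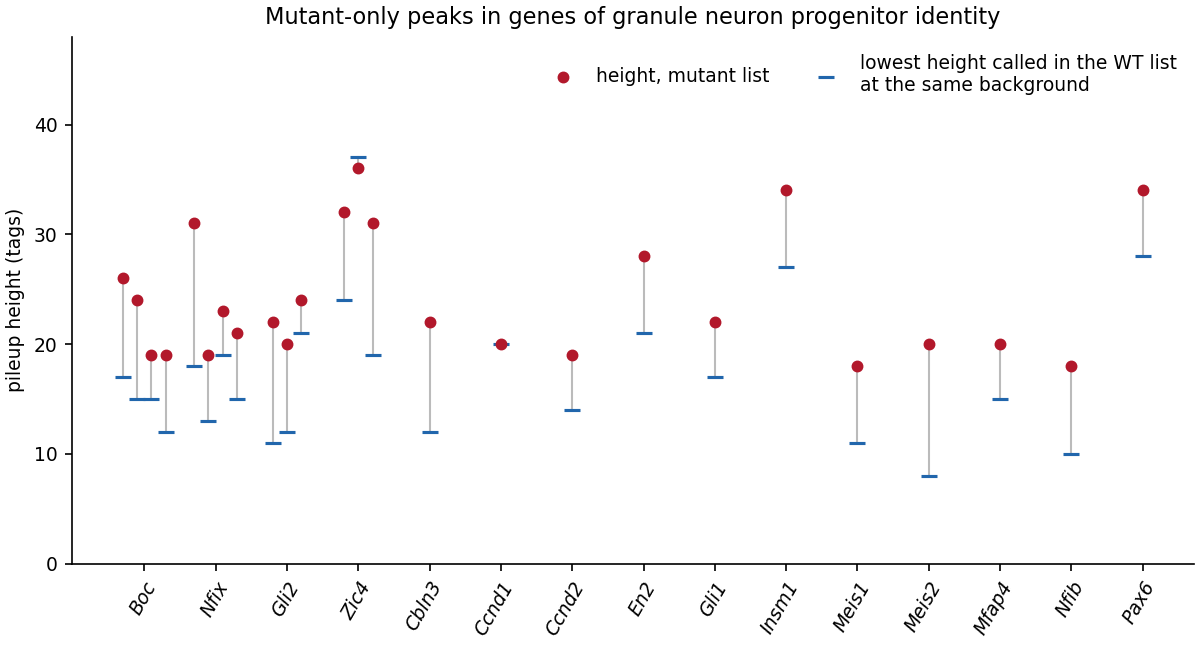
Pileup height in tags (y axis) of the 25 mutant-only peaks in 15 genes of granule neuron progenitor identity (x axis; red points) and the lowest height called in the WT list at the same background or above (blue dashes). The ratio of the pair is highest for Meis2, 20 against 8, and the gap is absent for Ccnd1, 20 against 20, and reversed for 1 peak of Zic4, 36 against 37.

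The hedgehog list gave 10 of 151 tall peaks (6.62%, 3.64 to 11.8), against 2.82% over all genes. They lay in Boc, Gli2, Gli1, Ccnd1 and Shh, the ligand gene, whose peak had a height of 19. All but the peak of Shh were already counted in the identity list, so the lists are not independent. WT-only peaks were 1 of 130 (0.769%, 0.136 to 4.23), an interval that includes the WT-only share of all genes, 730 of 48684. Of its tall peaks, 75.5% lay at 2 times the genome-wide background or more, against 55.1% in all genes. On such ground 9 of 30 peaks of height 18 to 24 were mutant-only, against 13.1% over all genes, and on lower ground 0 of 19. Of the Notch, BMP and Wnt genes, 11 held 1 each, 11 of 227 tall peaks (4.85%, 2.73 to 8.47), an interval that includes the 2.82% of all genes. At heights of 18 to 24 and 2 times the genome-wide background or more it was 4 of 50, against 13.1% over all genes. The Notch receptors Notch1 and Notch2 had peaks of height 22 and 28, the ligands Dll1 and Jag2 of 28 and 19, and the target Hes1 of 25. The Wnt genes Axin2, Rspo2 and Wnt5a had 23, 23 and 20, and the BMP genes Bmp7, Bmpr1b and Smad7 21, 20 and 27. The strongest of them by −log10 q were in Rspo2 (12.7), Bmpr1b (12.1) and Notch2 (11.3).

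Of the tall peaks in axon guidance and migration genes, 28 of 671 (4.17%, 2.90 to 5.96) were mutant-only, against 2.82% over all genes. WT-only peaks were 9 of 609 (1.48%, 0.779 to 2.78), against 730 of 48684 over all genes. At heights of 18 to 24 the mutant-only share was 8.55% (5.60 to 12.8), against 6.63% over all genes. On ground of 2 times the genome-wide background or more it was 16.7% (13 of 78), against 13.1%. Both intervals include the share of all genes. The members of that list with most were Robo2, with heights of 28, 20, 29 and 18, and Dab1, the Reelin adaptor, with 18, 18 and 22. Semaphorin signalling was represented by the ligands Sema3a, Sema5a and Sema6d and the receptors Nrp2, Plxna2, Plxna4 and Plxnb2, with heights of 19 to 31. Slit signalling was represented by Slit3 with 1 peak of height 18, Robo1 with 1 of 21 and Robo3 with 2 of 18, and netrin signalling by Ntn4 (21), Unc5b (28) and Unc5c. The highest −log10 q of the list, 10.8, was reached in Nrp2 and Dab1.

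Genes that need Chd7 held mutant-only shares near that of genes at large. The study's list of genes lower in Chd7 mutant GNPs had 36 mutant-only peaks among 1081 tall peaks (3.33%, 2.42 to 4.58), in 31 of 142 genes matched, and its list of genes that need both Chd7 and the topoisomerase Top2b in granule neurons had 79 of 2536 (3.12%, 2.51 to 3.87). The copy of that list used here holds 203 names, of which 199 were matched, and is shorter than the list the study counts. In the study, 203 of the genes activated by both also rose on differentiation. Whether the copy is that subset was not checked. Both intervals include the 2.82% of all genes. The WT-only shares were 1.83% (1.17 to 2.83) and 2.08% (1.57 to 2.74), against 730 of 48684 for all genes. The interval of the GNP list includes the WT-only share of all genes. The interval of the Chd7 and Top2b list lies just above that share, though it overlaps the interval of all genes. This departure on the WT side was not tested. The mutant-only shares were also taken at heights of 18 to 24 on ground of 2 times the genome-wide background or more. They were 19.8% (17 of 86, 12.7 to 29.4) and 14.9% (39 of 261), against 13.1% over all genes. The study chose these lists on expression in the same mutants, so they are not independent of the genotype.

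Together 91 mutant-only peaks lay in 73 genes of either list. Among the strongest were those in Sh3rf3 (height 23, −log10 q 15.4), Sox5 (25, 14.8) and Ppp3ca (27, 14.1), all on the granule neuron list alone. Cadps2, which primes neurotrophin vesicles for release in granule cells, held 2, of height 23 and 18, at 3805 and 5229 bp from the nearest WT peak. The related gene Cadps held 1 of height 22, and Cacna2d1, an auxiliary calcium channel subunit, Nectin3, an adhesion gene, and Dpp6, an auxiliary potassium channel subunit, held peaks of height 19, 18 and 22. Adhesion and synapse genes gave 25 of 1210 (2.07%, 1.40 to 3.03), and ion channel and receptor genes 18 of 707 (2.55%, 1.62 to 3.99), both with intervals that include the share of all genes. At heights of 18 to 24 adhesion and synapse genes were lower, at 3.90% (2.45 to 6.16) against 6.63% (6.28 to 6.99). Divided by background they gave 12 of 89 on high and 5 of 347 on low ground, with intervals that include the shares of all genes. Ion channel and receptor genes gave 15 of 250 at that height, whose interval includes the 6.63%.

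**Figure D5:**
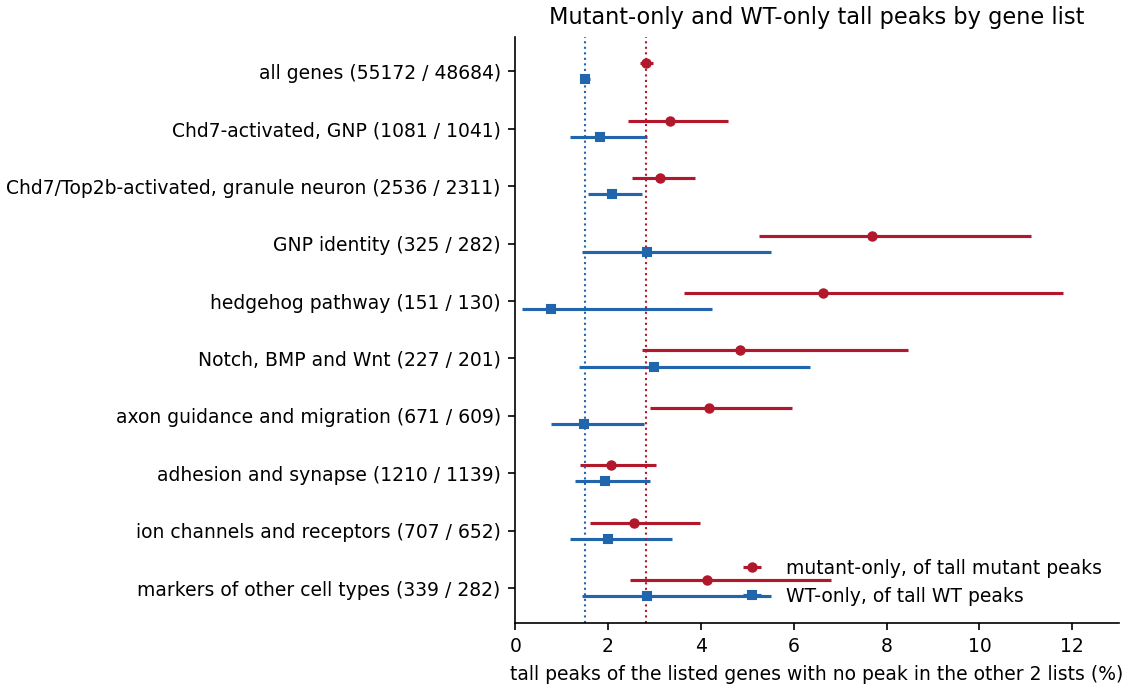
Percent of tall peaks in the genes of each list with no peak in either other list (x axis), for mutant-only (red, of tall mutant peaks) and WT-only (blue, of tall WT peaks), with 95% Wilson intervals; the numbers of tall mutant and WT peaks stand in brackets. Dotted lines mark all genes, at 1554 of 55172 (2.82%) and 730 of 48684 peaks. GNP identity, hedgehog and axon guidance genes reach 7.69%, 6.62% and 4.17% in the mutant list. All mutant-only peaks of the hedgehog list except that of Shh are also counted under GNP identity.

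Markers of other cerebellar cells were also examined. Over 8 marker lists joined, 14 of 339 tall peaks (4.13%, 2.48 to 6.81) were mutant-only, an interval that includes the 2.82% of all genes. By list they numbered 2 of 80 for Purkinje cells, 3 of 50 for inhibitory interneurons, 2 of 55 for astroglia and Bergmann glia, 5 of 37 (13.5%, 5.91 to 28.0) for the oligodendrocyte lineage and 3 of 61 for unipolar brush and deep nuclear neurons. There were 0 of 24 for microglia, 0 of 38 for endothelial, mural and meningeal cells and 0 of 8 for ependyma and choroid plexus. The 5 of the oligodendrocyte lineage lay in Pdgfra (heights 26 and 24), Cspg4 (19 and 20) and Olig2 (19). A tall start-site peak was present at 34, 33 and 33 of the 34 GNP identity genes in WT, mutant and het, and at 1, 2 and 2 of 10 microglial genes. It was present at 6 of 10 genes of the oligodendrocyte lineage and 9 of 12 Purkinje cell genes in each list. The part of other cells in these peaks was not tested.

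Sequence at the summit, which the rule did not use, differed between the sets. In the 201 bp around the summit, median GC content for heights of 18 to 24 was 50.2% for mutant-only, 51.2% for shared and 51.7% for WT-only peaks, and the median number of CpGs was 3 in each. The motifs searched, on both strands, were the E-box in its forms CAGCTG and CATATG, then CAGATG and CACCTG, bound by bHLH factors such as Atoh1 and Neurod1. The others were the short nuclear factor I site TTGGCA, AP-1 TGANTCA, Sox ACAATGG, homeobox TAATTA, Zic CAGCAGG, Rfx GTTGCCA, CRE TGACGTCA, Ets CCGGAAG, the CTCF core CCACNAG and Mef2 CTATTTA. An Rfx match followed by A also holds the short nuclear factor I site. The shares that follow are of peaks of height 18 to 24 whose window held a match.

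The E-box CAGATG was present in 23.8% of mutant-only peaks (393 of 1648), 28.9% of shared peaks (28.4 to 29.5) and 34.4% of WT-only peaks (267 of 777, 31.1 to 37.8). Mutant-only peaks held it least often and WT-only peaks most often, with intervals that did not overlap. Over all heights it was in 22.6% of mutant-only (452 of 2002) and 35.2% of WT-only peaks (335 of 951). More than 1 kb from start sites the shares over all heights were 23.6% and 37.4%, with 30.9% for shared peaks of height 18 to 24. With heights taken the same way, at under 2 times the genome-wide background they were 25.6% for mutant-only (22.3 to 29.2), 30.1% for shared (29.4 to 30.7) and 42.9% for WT-only peaks (36.3 to 49.8). On higher ground they were 21.3% (19.2 to 23.5), 25.7% (24.7 to 26.8) and 33.1% (29.8 to 36.6). The order of the sets was the same in each of these divisions.

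Other E-boxes went partly the same way. CATATG was in 4.07% of mutant-only (3.21 to 5.13), 5.04% of shared (4.78 to 5.32) and 7.59% of WT-only peaks (5.93 to 9.67), so that the intervals of mutant-only and shared peaks overlapped. CACCTG was in 12.1% of mutant-only (10.6 to 13.8), 14.1% of shared (13.7 to 14.5) and 15.1% of WT-only peaks (12.7 to 17.7). CAGCTG was in 25.1%, 25.1% and 24.6% in the same order.

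The homeobox motif had the opposite order, though the intervals of shared and WT-only peaks overlapped. TAATTA was present in 7.52% of mutant-only peaks (6.35 to 8.90), 5.45% of shared (5.18 to 5.74) and 3.86% of WT-only peaks (2.72 to 5.46). On low ground, again over all heights for the sets found in 1 list alone, the order held for mutant-only against shared peaks, at 8.96% and 6.04%. WT-only peaks were at 7.80%. On high ground mutant-only, shared and WT-only peaks were at 6.84%, 3.85% and 2.55%. TAATTA holds no G or C, and median GC was lower in mutant-only than in shared peaks. It was 47.3% and 50.2% on low ground, and 51.2% and 54.2% on high ground. The part of base composition was not tested. The short nuclear factor I site was in 21.1% of mutant-only (19.2 to 23.1), 23.6% of shared (23.1 to 24.1) and 18.1% of WT-only peaks (141 of 777). By background, mutant-only and shared peaks were at 23.8% (20.6 to 27.3) and 25.3% on low ground and 18.4% (16.5 to 20.6) and 1313 of 6904 on high ground, within the intervals.

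Without division by background, the other motifs had overlapping intervals in mutant-only and shared peaks of height 18 to 24. Zic matches were in 11.2% of mutant-only peaks (9.79 to 12.8) and 3363 of 25872 shared peaks, a share just above that interval. Mef2 matches were in 2.31% (1.68 to 3.15) and 1.72%. AP-1 was in 6.37% and 6.31%, Sox in 2.61% and 2.72%, Rfx in 4.61% and 4.81%, CRE in 0.243% and 0.348%, Ets in 1.40% and 1.47%, and the CTCF core in 279 of 1648 and 4651 of 25872. By background, mutant-only peaks were again taken over all heights. On low ground Zic matches were in 8.96% of mutant-only (6.95 to 11.5) and 2471 of 18968 shared peaks. On high ground Mef2 matches were in 2.67% of mutant-only (1.94 to 3.65) and 1.42% of shared peaks (1.17 to 1.73). In neither case did the intervals overlap, while those of Zic on high ground and Mef2 on low ground did. Tag size and genotype cannot be told apart in the motif differences. The match of a few letters is a description and not a site.

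Repeated sequence was rare. A 76-base word, the tag length of the mutant pool, that occurs more than once in the genome was held by 28 mutant-only peaks (1.40%), 1.27% of shared peaks of height 18 to 24 and 2.52% of WT-only peaks. At heights of 18 to 24, 3.76% of mutant-only windows (2.95 to 4.79), 2.72% of shared (2.53 to 2.93) and 4.63% of WT-only windows (3.37 to 6.35) were mostly soft-masked.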

How the data were processed

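ATAC-seq libraries of P7 granule neuron progenitors (3 WT, 3 mutant, 2 het) were pooled per genotype by the authors, and 1 list of peaks per genotype was used. The submitters' processing notes name Trim Galore 0.4.1, STAR 2.5.0b, Bowtie 1.0.0, Picard 1.139, MACS2 2.1.0.20150731 and the build mm10. Per the file headers, MACS2 was run at a q-value cutoff of 0.05 with no control, after filtering to 50394313 (WT), 51030229 (mutant) and 30923002 (het) tags of 107, 76 and 107 bp. Tags were extended to 90 (WT), 88 (mutant) and 200 bp (het), and those of het were shifted by -100 bp. Bowtie is named for het and STAR for WT and mutant, so aligner and extension cannot be told apart from the het genotype, which the rule uses.

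As deposited, pileup height is the signal at the summit in extended tags, not scaled to depth. The deposited fold enrichment is the ratio of that height to the local background, each with a pseudocount of 1, and the background was computed back from it, while the deposited −log10 q is the adjusted p of the peak against it. Every value is of a pool, so no test between genotypes was possible. Shares of peaks carry 95% Wilson intervals, which cover counting error only, since peaks of 1 pool are not replicates.

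Distances between lists, the lowest WT height called at a peak's background or above (backgrounds scaled by the ratio of the genome-wide values), gene assignment, 201 bp summit windows, motif matches and genome copies of 76-base words were computed with Python 3.11.15, numpy 2.4.6, pandas 2.3.3, scipy 1.17.1 and numba 0.67.0, and drawn with matplotlib 3.10.9. The helper functions were tested on simulated data. Genes were the 21938 protein-coding and 13374 long non-coding genes of GENCODE M21, and 600 of 613 listed symbols were matched. The sequences were read from the RefSeq copy of GRCm38.

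Named were the 10 peaks of highest −log10 q, the 10 highest within 1 kb of a protein-coding start site, the 10 highest in genes of the 2 lists of Chd7-dependent genes, peaks within 10 kb of another (206, given as counts and the densest groups) and the genes with most. The peaks and gene lists were chosen with earlier results of these data known. The division by background and the checks of repeated words, of distance from start sites and of the E-box were added after the data were seen. 1 gene that this rule names is not reported here.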

Additional observations from a re-analysis of the deposited data

Results flagged for a closer look

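The X chromosome lies outside the rule, which covers autosomes only. In the mutant list 47 of 1989 tall X peaks (2.36%, 1.78 to 3.13) had no WT and no het peak within 300 bp, close to the 2.56% of the autosomes. In the WT list, 18 of 1674 tall X peaks (1.08%, 0.681 to 1.69) had no counterpart, against 1.38% of the autosomes. No test was made of the difference, since each list is 1 pool.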

How the results depend on the processing

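No paired analysis was possible because each list was called on pooled libraries, and for the same reason no library could be left out. Of 34 alternatives, 12 gave values within counting error of those reported and 22 moved them. The share of tall mutant peaks that were mutant-only, 2.56%, was 3.36% when any overlap of 1 bp counted as a match, 1.72% at a distance of 1000 bp, 4.98% for heights of 15 or more and 1.73% for 20 or more. It was 0.645% with a −log10 q of 10 or more in place of height, 1.43% with a fold enrichment of 4 or more, 3.53% against the WT list alone and 6.63% when WT and het peaks counted only from a −log10 q of 5 upwards. The intronic and intergenic shares joined, 48.2% and 31.8%, came to 85.3% at 1000 bp, 78.0% for heights of 20 or more, 91.5% with the −log10 q and 83.4% with protein-coding genes alone. The share at start sites, 14.2%, was 8.71%, 16.0%, 4.48% and 11.5% in the same order. Median GC, 50.2%, was 45.3% with the −log10 q and 51.6% over whole peaks. In genes lower in the mutant the share, 3.33%, was 1.76% at 1000 bp, 2.27% for heights of 20 or more and 0.676% with the −log10 q, where all genes gave 1.85%, 1.96% and 0.558%. The E-box CAGATG, at 22.6%, was in 25.6% at under 2 times the genome-wide background. The wider distance and the stricter cutoffs remove peaks by construction, and the cause of the other shifts was not tested.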
